A study of Mus musculus with 11 samples.

Results

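Leukotrienes and prostaglandins are lipid signals made from arachidonic acid, and 10 genes of their synthesis and sensing were taken from the RNA sequencing of peritoneal neutrophils (polymorphonuclear cells, PMNs). The genes were found by their symbols among the 54164 genes of the expression table, and all 10 of 10 had 1 entry each: Pla2g4a, Alox5, Alox5ap, Lta4h, Ltc4s, Ltb4r1, Alox15, Ptgs1, Ptgs2 and Ptges. PMNs of 6 FOXO3 KO and 5 WT mice were compared, 1 library per mouse. The FOXO3 KO mice were knock-outs of Foxo3, which encodes a forkhead transcription factor, in a line not described as restricted to any cell type, and the WT mice were homozygous for the intact gene. The knock-out allele is not described in the sources used here. All mice were C57BL/6 of either sex, aged 6 to 8 weeks, and all received casein into the peritoneum, with a second injection a day later, so both genotypes were measured only in the casein-elicited state. Values are in TPM, a share of all transcripts that corrects for transcript length, and levels of different genes may be set side by side.

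In this pathway, cytosolic phospholipase A2 frees arachidonic acid from membranes. 5-Lipoxygenase, helped by its partner FLAP, turns it into leukotriene A4, which either becomes leukotriene B4, a strong attractant of PMNs, or is joined to glutathione to give the cysteinyl leukotrienes. Alternatively, the cyclooxygenases make prostaglandin H2, which further synthases convert to prostaglandin E2 and other prostanoids.

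Foxo3 stood at 0.844 to 4.27 TPM in the FOXO3 KO libraries, below all WT libraries at 7.61 to 11.7 TPM, and its mean was 26.3% of that in WT. The table's columns carry single-digit numbers (FOXO3 KO 1, 2 and 3, and WT 1, 2 and 3) or two-digit numbers (FOXO3 KO 05, 06 and 09, and WT 03 and 08), and the sources used here do not say what the numbering stands for. On the first principal component, with 44.9% of the variance, all two-digit libraries lay on one side and all single-digit libraries on the other. The male gene Ddx3y was at 18.0 to 42.9 TPM in FOXO3 KO 3, FOXO3 KO 09, WT 03 and WT 08 and at most at 0.264 TPM in the other libraries, so both WT libraries of the two-digit series were male. FOXO3 KO 3 also had 4.29 TPM of Xist, which is transcribed from an inactivated X chromosome, against at most 0.115 TPM in the other male libraries, and the part of these features in the results was not tested. All 10 PMN markers were present, at summed levels of 102465 to 184174 TPM in FOXO3 KO and 125017 to 255433 TPM in WT. B cell markers were summed at 1157 to 5288 TPM in the two-digit and 72.5 to 549 TPM in the single-digit libraries, and T cell markers at 60.7 to 99.1 TPM in the two-digit and 10.7 to 19.5 TPM in the single-digit libraries.

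The FLAP gene Alox5ap had by far the highest level of the 10 in each library, at 62.3 to 83.6% of their summed TPM, and ranked 96 of all genes in the table by mean TPM. In FOXO3 KO PMNs it averaged 1055 TPM, followed by the inducible cyclooxygenase gene Ptgs2 at 199 TPM and the inducible prostaglandin E synthase gene Ptges at 115 TPM. The middle of the order was formed by Ltb4r1 (41.6 TPM), Lta4h (30.8 TPM), Pla2g4a (24.6 TPM) and Alox5 (20.7 TPM). Alox15 (6.11 TPM), Ptgs1 (4.96 TPM) and Ltc4s (2.99 TPM) were lowest. WT PMNs had the same order, except that Alox5, at 33.3 TPM, stood before Lta4h and Pla2g4a. Neighbours in the middle were not separated: Pla2g4a exceeded Alox5 in 3 of 6 FOXO3 KO libraries, and Alox5 exceeded Lta4h in 3 of 5 WT libraries. By contrast, Alox5ap exceeded Ptgs2, and Ptgs1 exceeded Ltc4s, in all FOXO3 KO and all WT libraries.

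**Figure D1:**
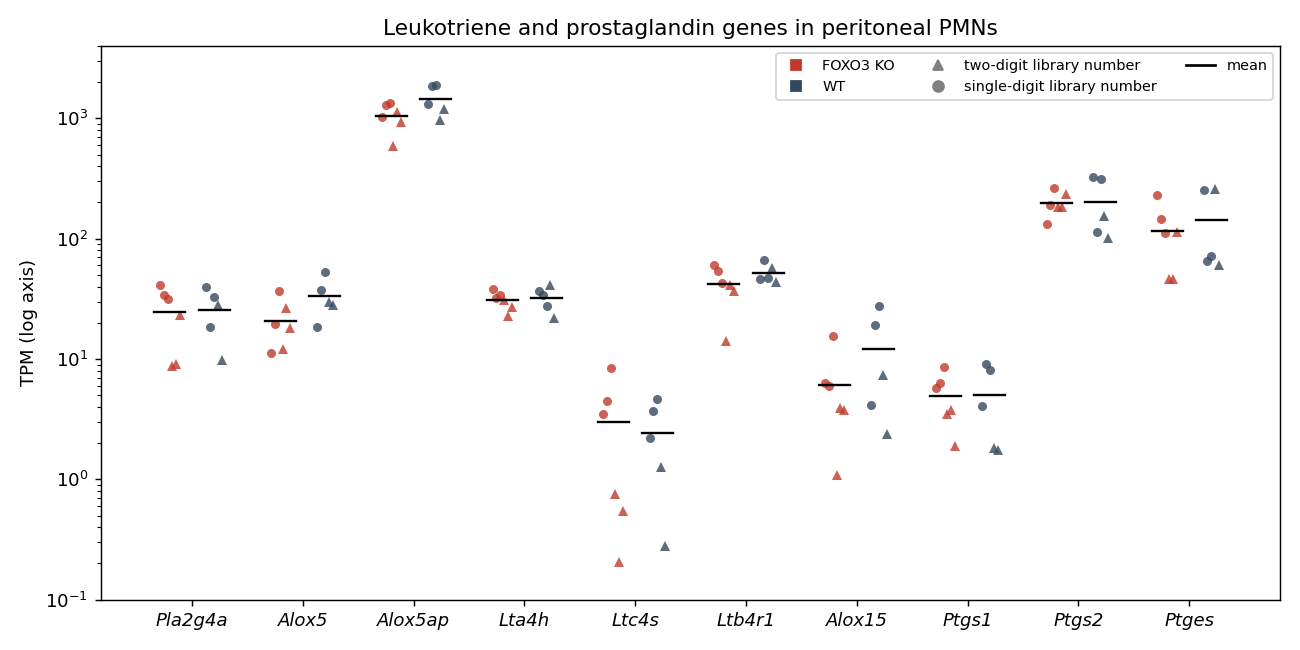
TPM (log axis) of the 10 genes in each library, with FOXO3 KO (red, n = 6) left of WT (dark, n = 5), triangles for two-digit and circles for single-digit libraries, and bars for means. The FOXO3 KO and WT points overlap for all 10 genes, and the triangles of Ltc4s and Ptgs1 lie below the circles.

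The comparison of FOXO3 KO with WT PMNs asks whether loss of FOXO3 changed the transcripts of these genes. None of the 10 passed the threshold (FDR < 0.05 with a log2 fold change of more than 0.5 in size), and for each the FOXO3 KO and WT values overlapped. The share of all genes without such overlap was not counted. The test was limma on log2(TPM + 1) for 12195 genes, namely those averaging 1 TPM or more, with Benjamini-Hochberg adjustment over all of them, and 0% of all genes tested were called. Foxo3 itself, first of all genes by p with a log2 fold change of -1.65 (standard error 0.26), also missed the threshold (limma FDR = 0.49). At an unadjusted limma p under 0.05 there were 0 of the 10, against 2.11% of all genes tested. Of the 10, 7 had a negative log2 fold change, against 31.4% of all genes tested in the same fit. This count was 9 with quantile normalization, and it ranged from 4 to 10 when single libraries were left out (4 without FOXO3 KO 06 or without WT 1). The share of all genes was not counted in these refits, so 31.4% is not their background. Over all genes tested the median log2 fold change was 0.11, and it became 0.0095 with quantile normalization. Relative to the unscaled median, the 10 values ranged from -0.83 (Alox15) to 0.011 (Ptgs2).

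Alox5, which encodes 5-lipoxygenase, ranged from 11.3 to 36.8 TPM in FOXO3 KO libraries (median 18.8 TPM), against 18.6, 37.5, 52.8, 29.7 and 27.9 TPM in WT 1, 2, 3, 03 and 08. FOXO3 KO 1, 05 and 09 lay below every WT library, WT 2 and WT 3 lay above every FOXO3 KO library, and the rest overlapped. FOXO3 KO PMNs averaged 62.3% of the WT level (20.7 ± 9.62 TPM in FOXO3 KO against 33.3 ± 12.8 TPM in WT, SD, n = 6 and 5). The log2 fold change was -0.69 (standard error 0.32, 95% interval -1.40 to 0.014), or -0.80 relative to the median of all genes, and did not pass the test (limma FDR = 0.99). A two-sided exact permutation test over all 462 arrangements gave p = 0.080. The value was negative under all 21 refitted alternatives, at -0.87 to -0.51 with single libraries left out, and it was -0.64 in the two-digit and -0.70 in the single-digit libraries. In bulk RNA, fewer cells of a type and less RNA per cell cannot be told apart.

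Alox5ap encodes FLAP, the membrane protein that presents arachidonic acid to 5-lipoxygenase. It ranged from 589 to 1353 TPM in FOXO3 KO libraries (median 1082 TPM), against 1319, 1873, 1880, 963 and 1192 TPM in WT 1, 2, 3, 03 and 08. FOXO3 KO 05 and 09 were below every WT library, and WT 2 and 3 above every FOXO3 KO library. The means were 1055 ± 275 TPM in FOXO3 KO and 1446 ± 414 TPM in WT (SD, n = 6 and 5), with a log2 fold change of -0.45 (standard error 0.25, 95% interval -1.01 to 0.10) that did not pass (limma FDR = 0.99). It was -0.33 in the two-digit and -0.46 in the single-digit libraries, and -0.30 without FOXO3 KO 05, and it was negative under all 21 refitted alternatives. In the numbered pairs 1 to 3, Alox5 and Alox5ap were lower in FOXO3 KO than in WT in 3 of 3 pairs, against 6.82% of all genes tested. Ltb4r1, Alox15 and Ptgs2 were lower in 2 pairs, and Pla2g4a, Lta4h, Ptgs1 and Ptges in 1 pair. Ltc4s was higher in 3 of 3 pairs, as were 48% of all genes tested. Per library, Alox5ap exceeded Alox5 36.8- to 92.0-fold in FOXO3 KO and 32.4- to 71.0-fold in WT, and these ranges overlapped.

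Alox5 lies on chromosome 6 of GRCm38 (chr6:116410077-116461178, minus strand) and Ptgs2 on chromosome 1 (chr1:150100031-150108227, plus strand). Their promoter windows, from 250 bases before to 50 bases after the RefSeq start on GRCm38.p6, are shown because Alox5 had the smallest genotype p of the 10 and Ptgs2 was the second most abundant. The windows of Ltc4s (chr11:50236461-50238616, minus strand) and Ptgs1 (chr2:36230426-36252272, plus strand) are shown because these genes differed most clearly between the numbering series. Both strands were searched for the forkhead (FOXO) element GTAAACA and for TGACG, one part of the cAMP response element. The motifs do not contain each other. GTAAACA was in 0 of the 9 windows that RefSeq gave for 8 of the 10 genes, and in 3.65% of 32851 windows of all genes. TGACG was in 1 of the 9, that of Ptgs2, and in 20.8% of all windows. Capitals mark this match, which reads CGTCA on the printed strand.
Alox5 (chr6:116461129-116461428, minus strand): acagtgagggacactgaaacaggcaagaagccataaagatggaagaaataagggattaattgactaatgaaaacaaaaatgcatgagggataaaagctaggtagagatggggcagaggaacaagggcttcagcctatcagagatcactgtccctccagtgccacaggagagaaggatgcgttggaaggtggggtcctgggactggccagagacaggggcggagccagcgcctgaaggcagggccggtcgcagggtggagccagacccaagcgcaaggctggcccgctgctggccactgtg
Ptgs2 (chr1:150099781-150100080, plus strand): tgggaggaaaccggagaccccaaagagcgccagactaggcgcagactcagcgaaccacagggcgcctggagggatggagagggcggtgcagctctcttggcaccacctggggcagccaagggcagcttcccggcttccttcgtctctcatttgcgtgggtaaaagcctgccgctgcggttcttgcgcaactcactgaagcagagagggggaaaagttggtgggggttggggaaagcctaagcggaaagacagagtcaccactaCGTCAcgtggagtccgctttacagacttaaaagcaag
Ltc4s (chr11:50238483-50238782, minus strand): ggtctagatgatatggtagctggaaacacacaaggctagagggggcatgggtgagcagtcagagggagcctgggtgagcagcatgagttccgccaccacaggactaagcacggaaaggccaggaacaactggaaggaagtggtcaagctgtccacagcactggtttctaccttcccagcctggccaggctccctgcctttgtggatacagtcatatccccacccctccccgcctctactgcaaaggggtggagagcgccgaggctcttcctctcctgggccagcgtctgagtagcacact
Ptgs1 (chr2:36230176-36230475, plus strand): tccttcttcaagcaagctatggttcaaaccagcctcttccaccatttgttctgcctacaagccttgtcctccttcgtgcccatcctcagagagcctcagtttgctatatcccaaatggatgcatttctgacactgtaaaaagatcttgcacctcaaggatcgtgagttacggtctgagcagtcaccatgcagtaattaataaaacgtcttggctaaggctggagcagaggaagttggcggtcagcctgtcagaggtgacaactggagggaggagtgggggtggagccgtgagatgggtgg
A match describes letters in this window only.

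Alox15 encodes 12/15-lipoxygenase, which in mouse is a known product of resident peritoneal macrophages and eosinophils. It ranged from 1.08 to 15.7 TPM in FOXO3 KO libraries (median 4.92 TPM), against 4.15, 19.2, 27.5, 7.31 and 2.39 TPM in WT 1, 2, 3, 03 and 08. WT 2 and 3 exceeded every FOXO3 KO library, FOXO3 KO 3 stood well above the other FOXO3 KO libraries, and the others overlapped. The mean was 6.11 ± 5.04 TPM in FOXO3 KO and 12.1 ± 10.8 TPM in WT (SD, n = 6 and 5), so that FOXO3 KO was at 50.4% of WT, with a log2 fold change of -0.72 (standard error 0.60, 95% interval -2.03 to 0.59). This difference lay within the spread between libraries (limma FDR = 0.99). With single libraries left out the value ranged from -1.09 to -0.32, the value nearest 0 being that without WT 3.

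Lta4h encodes leukotriene A4 hydrolase, the enzyme that makes leukotriene B4. It varied least of the 10, at 22.7 to 38.4 TPM in FOXO3 KO (median 31.3 TPM) and 36.5, 33.9, 27.3, 40.9 and 21.8 TPM in WT 1, 2, 3, 03 and 08. Every FOXO3 KO library lay within the WT range. Its log2 fold change was -0.041 (standard error 0.19, 95% interval -0.46 to 0.38, limma FDR = 0.99), with -0.16 in the two-digit and 0.099 in the single-digit libraries.

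Ltb4r1, the gene of the high-affinity leukotriene B4 receptor BLT1 of PMNs, was at 14.2 to 60.8 TPM in FOXO3 KO (median 42.2 TPM), against 46.6, 66.2, 46.8, 57.5 and 44.0 TPM in WT 1, 2, 3, 03 and 08. FOXO3 KO 05 was the lowest library, and 4 of 6 FOXO3 KO libraries were below the lowest WT library. The log2 fold change was -0.42 (standard error 0.31, 95% interval -1.10 to 0.25, limma FDR = 0.99). It was -0.15 without FOXO3 KO 05, and -0.82 in the two-digit against -0.018 in the single-digit libraries.

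Ltc4s, the gene of leukotriene C4 synthase, the first step to the cysteinyl leukotrienes, was at 0.207 to 8.45 TPM in FOXO3 KO (median 2.11 TPM) and at 2.20, 3.71, 4.62, 1.25 and 0.279 TPM in WT 1, 2, 3, 03 and 08. Within each genotype, the two-digit libraries were the lowest ones. The genotype log2 fold change was 0.0086 (standard error 0.57, 95% interval -1.23 to 1.24, limma FDR = 1.0). In the single-digit libraries alone, where FOXO3 KO was the higher of each numbered pair, it was 0.49 (limma FDR = 0.71), and with the numbers as a replicate block it was 0.18 (limma FDR = 0.84). A nearby antisense gene with overlapping exons was at 0.0954 to 0.403 TPM, and since the use of strand is not stated, reads could have been split between them. Opposite-strand genes overlapping exons of Alox5ap and Ptgs1 reached at most 0.0128 and 0.134 TPM.

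Pla2g4a, the gene of cytosolic phospholipase A2 alpha, was at 8.73 to 40.9 TPM in FOXO3 KO (median 27.6 TPM), against 39.4, 18.6, 32.8, 28.2 and 9.84 TPM in WT 1, 2, 3, 03 and 08. FOXO3 KO 05 and 06 and WT 08 were lowest, at 8.73 to 9.84 TPM, and the groups overlapped. The log2 fold change was -0.14 (standard error 0.46, 95% interval -1.15 to 0.86, limma FDR = 0.99), but -0.42 in the two-digit against 0.28 in the single-digit libraries.

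Among the cyclooxygenases, Ptgs1 encodes the constitutive and Ptgs2 the inducible enzyme. Ptgs2 was at 133 to 264 TPM in FOXO3 KO (median 189 TPM), against 323, 113, 315, 155 and 100 TPM in WT 1, 2, 3, 03 and 08. The WT libraries lay on both sides of the FOXO3 KO range, with WT 1 and 3 above it and WT 2 and 08 below it. The means were 199 ± 45.3 TPM in FOXO3 KO and 201 ± 109 TPM in WT (SD, n = 6 and 5), with a log2 fold change of 0.12 (standard error 0.32, 95% interval -0.58 to 0.83, limma FDR = 0.99). Ptgs1 was at 1.88 to 8.59 TPM in FOXO3 KO (median 4.75 TPM), against 4.07, 9.10, 8.16, 1.81 and 1.76 TPM in WT 1, 2, 3, 03 and 08. Its log2 fold change was 0.11 (standard error 0.41, 95% interval -0.79 to 1.00, limma FDR = 0.99), and the groups overlapped. In the two-digit libraries alone, where the 3 FOXO3 KO libraries lay above both WT libraries by as little as 1.88 against 1.81 TPM, it was 0.50 (limma FDR = 1.0), against 0.0038 in the single-digit libraries. Ptgs2 exceeded Ptgs1 23.2- to 125-fold in FOXO3 KO libraries and 12.4- to 85.8-fold in WT libraries.

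Ptges, the gene of microsomal prostaglandin E synthase 1, was at 46.2 to 229 TPM in FOXO3 KO (median 112 TPM), against 252, 64.8, 71.5, 260 and 60.7 TPM in WT 1, 2, 3, 03 and 08. WT 1 and 03 and FOXO3 KO 1 were highest, at 229 to 260 TPM, and the other libraries of both genotypes were between 46.2 and 147 TPM. The log2 fold change was -0.20 (standard error 0.52, 95% interval -1.34 to 0.94, limma FDR = 0.99).

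**Figure D2:**
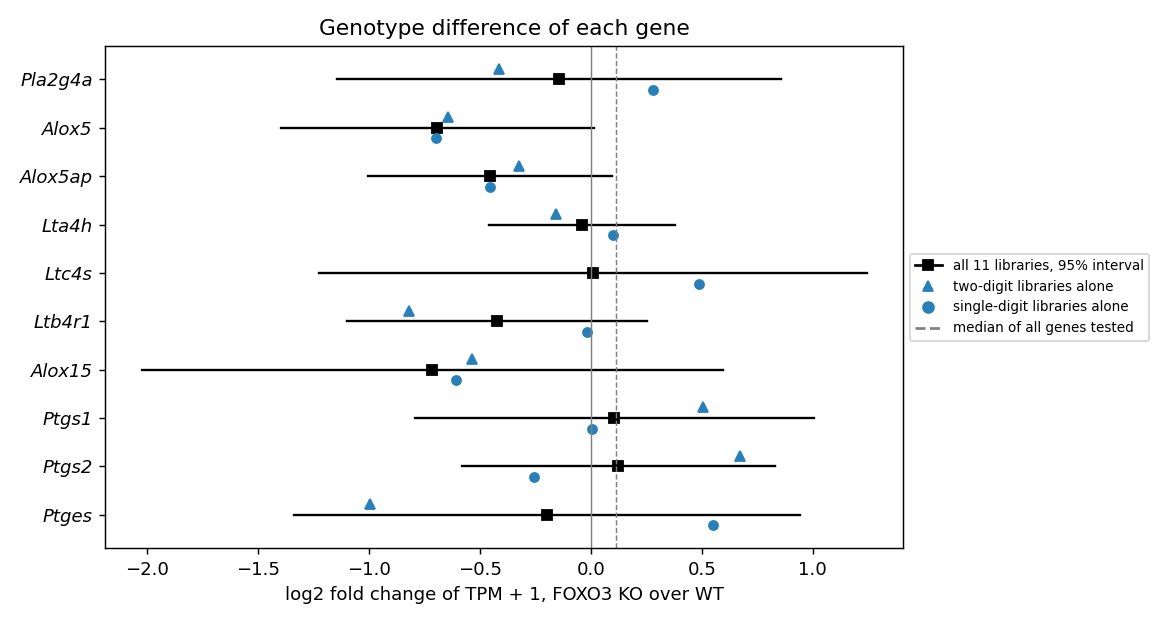
Log2 fold change of TPM + 1, FOXO3 KO over WT, for each gene, with all 11 libraries (squares, lines are 95% intervals) and with the two-digit (triangles) or single-digit (circles) libraries alone; Ltc4s has no triangle because its mean fell below 1 TPM there. The 10 intervals include 0, and Alox5, at -0.69, comes nearest to leaving it out.

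The numbering series differed more clearly than the genotypes. With genotype as a covariate, 3 of the 10 fell in the two-digit libraries relative to the single-digit ones (limma, FDR < 0.05 and a log2 difference under -0.5), against 11.7% of all genes tested, and none rose, against 8.26%. Ltc4s averaged 0.608 ± 0.423 TPM (SD, n = 5) in the two-digit and 4.49 ± 2.13 TPM (SD, n = 6) in the single-digit libraries, a log2 difference of -1.75 (standard error 0.27, limma FDR = 0.0013). Ptgs1 averaged 2.54 ± 0.998 TPM (SD, n = 5) in the two-digit and 6.99 ± 1.95 TPM (SD, n = 6) in the single-digit libraries, with a log2 difference of -1.20 (standard error 0.23, limma FDR = 0.0044). Both genes had every two-digit library below every single-digit library (Ltc4s at 0.207 to 1.25 TPM in the two-digit against 2.20 to 8.45 TPM in the single-digit libraries, Ptgs1 at 1.76 to 3.75 TPM in the two-digit against 4.07 to 9.10 TPM in the single-digit libraries), and 2 of the 10 did so against 6.86% of all genes tested.

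Pla2g4a averaged 15.8 ± 9.25 TPM (SD, n = 5) in the two-digit and 32.9 ± 7.90 TPM (SD, n = 6) in the single-digit libraries, a log2 difference of -1.14 (standard error 0.33, limma FDR = 0.033). Its ranges overlapped, and the call was lost in 8 of 11 fits that each left out a library (limma FDR up to 0.11, without WT 08; kept without FOXO3 KO 09, WT 2 or WT 03). Within FOXO3 KO alone the log2 differences were -2.05 for Ltc4s (limma FDR = 0.015), -1.45 for Pla2g4a (limma FDR = 0.046) and -0.98 for Ptgs1 (limma FDR = 0.063). Within WT alone none of the 3 passed (limma FDR = 0.14 to 0.69), with differences of -1.37 for Ltc4s, -0.75 for Pla2g4a and -1.48 for Ptgs1. Alox15 (-1.40, limma FDR = 0.052) and Alox5ap (-0.57, limma FDR = 0.058) came close without passing, and the other 5 had limma FDR of 0.22 to 0.74. Series and sex partly coincide, and B cell and T cell markers were higher in every two-digit than in every single-digit library, as given above. The intestinal epithelial sum, at 16.6 to 30.0 TPM in the two-digit and 3.48 to 5.90 TPM in the single-digit libraries, separated the series as well. Cdh1 of that list went the other way, at 0.429 to 1.23 TPM in the two-digit and 1.29 to 2.73 TPM in the single-digit libraries. The mesothelial sum was at 2.61 to 4.88 TPM in the two-digit and 0.301 to 2.25 TPM in the single-digit libraries. Only 1 of its 4 genes found, Krt19, had a mean of at least 1 TPM, and Wt1 and Lrrn4 were below 1 TPM in every library. Upk3b of that list did not separate the series, at 1.21 TPM in WT 1 and 0.0733 TPM in FOXO3 KO 06. In the direction of the genes that fell, the eosinophil sum was at 27.8 to 61.3 TPM in the two-digit and 40.9 to 149 TPM in the single-digit libraries, the monocyte sum at 470 to 889 TPM in the two-digit and 555 to 1410 TPM in the single-digit libraries, and the platelet sum at 34.0 to 432 TPM in the two-digit and 222 to 610 TPM in the single-digit libraries, all with overlap. The mast cell and basophil sum went the other way, with overlap. It was at 150 to 547 TPM in the two-digit and 26.1 to 169 TPM in the single-digit libraries. The part of these features in the differences was not tested.

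**Figure D3:**
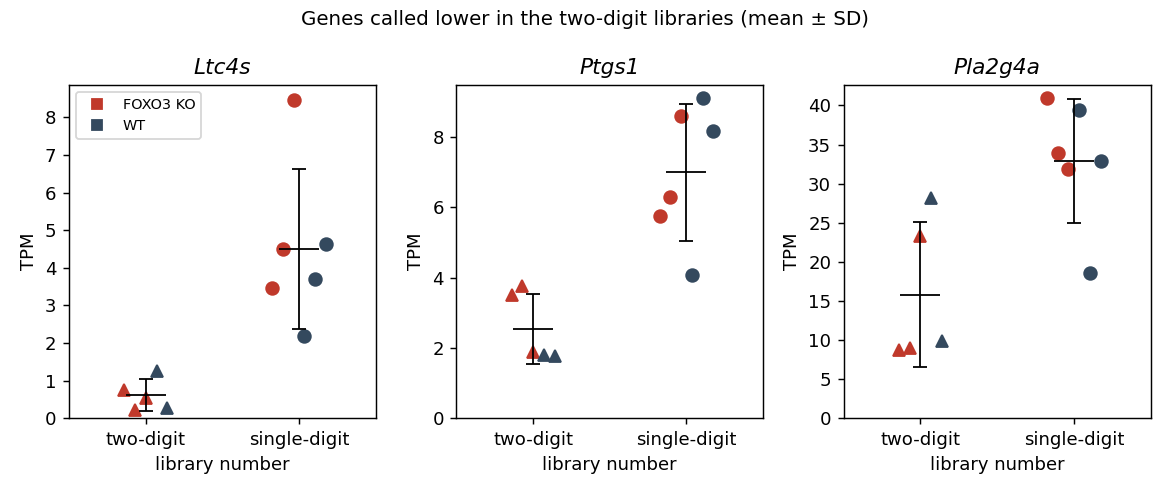
TPM of Ltc4s, Ptgs1 and Pla2g4a in the two-digit (n = 5, left) and single-digit (n = 6, right) libraries, with FOXO3 KO in red, WT in dark and mean ± SD in black. No point of Ltc4s or Ptgs1 in the two-digit libraries reaches the lowest single-digit point, whereas Pla2g4a overlaps.

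Whether the genotype effect itself differed between the series was tested as an interaction. None of the 10 passed, and of all genes tested 0% did (254 genes had an unadjusted limma p under 0.05). Ptges was at -0.997 in the two-digit and 0.55 in the single-digit libraries on the log2 scale (difference -1.55, standard error 0.95, limma FDR = 1.0). This difference was -0.51 without WT 03 and -2.59 without WT 08. Ptgs2 had the opposite signs, at 0.67 in the two-digit and -0.26 in the single-digit libraries (difference 0.93, standard error 0.60, limma FDR = 1.0), and its difference was 0.62 without WT 08 and 1.42 without WT 2.

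The genes did not vary as one group. For the 8 that averaged 5 TPM or more (all but Ltc4s and Ptgs1), with log2(TPM + 1) centred within each series, Pearson's r over the 11 libraries was 0.86 between Alox5 and Alox5ap, 0.85 between Alox5 and Alox15 and 0.69 between Alox5ap and Alox15. A second set joined Pla2g4a with Ptges (r = 0.89) and Lta4h with Ptges (r = 0.72), with r = 0.57 between Pla2g4a and Lta4h. Between these sets r ranged from -0.53 (Alox5ap and Lta4h) to 0.11 (Pla2g4a and Alox15). Ltb4r1 went with members of both, at 0.60 with Alox5ap, 0.44 with Alox15, 0.40 with Ptges and 0.35 with Pla2g4a and with Alox5. Ptgs2 had r of -0.11 to 0.35 with Alox5, Alox5ap, Alox15, Lta4h, Pla2g4a and Ptges, and of -0.43 with Ltb4r1. These points share their libraries, and the unknown depth and cell makeup of each, so the values only describe these libraries.

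Of 8091 genes averaging 5 TPM or more, those most like Alox5 in this measure over the 11 libraries were F5 (coagulation factor V, r = 0.97), Zyx (zyxin of focal adhesions, r = 0.97), Tmem40 (r = 0.96) and Anxa1 (annexin A1, an inhibitor of inflammation, r = 0.95). Anxa1 was at 148 to 377 TPM in FOXO3 KO and 208 to 388 TPM in WT, lowest in FOXO3 KO 1 and highest in WT 3, as was Alox5. Those most like Alox15 were Rflnb (r = 0.96), Gapt (r = 0.94), Siglecf (r = 0.94) and Il2rb (r = 0.94). Siglecf, which encodes the eosinophil receptor Siglec-F, was at 0.901 to 9.06 TPM in FOXO3 KO and 2.58 to 18.1 TPM in WT. For Ptgs2 the likeness was weaker, with Napa (r = 0.83), Gm25128 (r = 0.82), Slc38a2 (r = 0.81) and Gm42860 (r = 0.80), and with ranks the first of these had only a Spearman rho of 0.56.

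The marker lists of other cell types moved with several of the 10. Of 8 eosinophil markers 6 had a mean of at least 1 TPM, while Epx, which encodes eosinophil peroxidase, was below 1 TPM in every library. Their sum ranged from 27.8 to 119 TPM in FOXO3 KO (median 44.8 TPM), against 46.7, 134, 149, 61.3 and 28.8 TPM in WT 1, 2, 3, 03 and 08. FOXO3 KO 3, WT 2 and WT 3 were highest in this sum and in Alox15, and r between Alox15 and the sum was 0.95. Il5ra of the same list was instead highest in FOXO3 KO 05, at 6.73 TPM, the library with the lowest sum. In FOXO3 KO 3, WT 2 and WT 3, Il5ra was at 1.47, 1.14 and 2.88 TPM. For Alox5, r was 0.85 with the eosinophil sum and 0.71 with the sum of PMN markers, and for Alox5ap r was 0.62 and 0.76 with the same sums. The PMN sum had a median of 161296 TPM in FOXO3 KO and 228422 TPM in WT. S100a8 and S100a9 made up most of it, at 88865 and 148716 TPM of 255433 TPM in WT 08, the library with the highest sum. Of the other markers, Retnlg and Camp were also highest in WT 08. Csf3r, Cxcr2 and Mmp9 were highest in WT 2, Mmp8 and Ltf in WT 3 and Ly6g in FOXO3 KO 3.

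Macrophage markers, of which 8 of 10 had a mean of at least 1 TPM and Gata6 and Vsig4 stayed below 1 TPM in every library, summed to 203 to 749 TPM in FOXO3 KO (median 480 TPM) and 873, 569, 586, 992 and 259 TPM in WT 1, 2, 3, 03 and 08. Gata6 is the defining factor of large resident peritoneal macrophages. WT 1, WT 03 and FOXO3 KO 1 were highest in this sum, as they were in Ptges. Of the list, Adgre1 was highest in the same libraries, C1qa, C1qb and C1qc in WT 1 and WT 03, and Timd4 in WT 1. Csf1r and Cd5l were instead highest in FOXO3 KO 3, and Icam2 in FOXO3 KO 05 and 06, at 53.0 and 31.5 TPM. Icam2 was at 7.82 TPM in FOXO3 KO 1, 6.00 TPM in WT 1 and 15.9 TPM in WT 03. With the macrophage sum, r was 0.87 for Ptges, 0.84 for Pla2g4a and 0.82 for Lta4h. The same 3 genes had r of 0.80, 0.81 and 0.82 with the platelet list, of which Gp9, Gp1bb, Gp1ba, Gp6 and Treml1 were below 1 TPM in every library. With the PMN sum, which rested mostly on S100a8 and S100a9, r was negative, at -0.75 for Ptges, -0.57 for Pla2g4a and -0.77 for Lta4h. Ltc4s went with the monocyte sum (r = 0.81) and Ptgs2 with the mast cell and basophil sum (r = 0.76). Of the monocyte list, Fn1, Ccr2 and Ly6c2 were highest in FOXO3 KO 3, as was Ltc4s. Ms4a4c was highest in WT 03, F13a1 in FOXO3 KO 1 and Cx3cr1 in FOXO3 KO 09. Ly6c2 was also at 500 TPM in WT 08, where Ltc4s was at 0.279 TPM. Of the mast cell and basophil list, Mcpt8 was highest in FOXO3 KO 09, Kit in WT 1 and Ms4a2 in FOXO3 KO 3. The other genes of that list were highest in FOXO3 KO 05, as was their sum. The part of other cells in the levels of these genes was not tested.

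**Figure D4:**
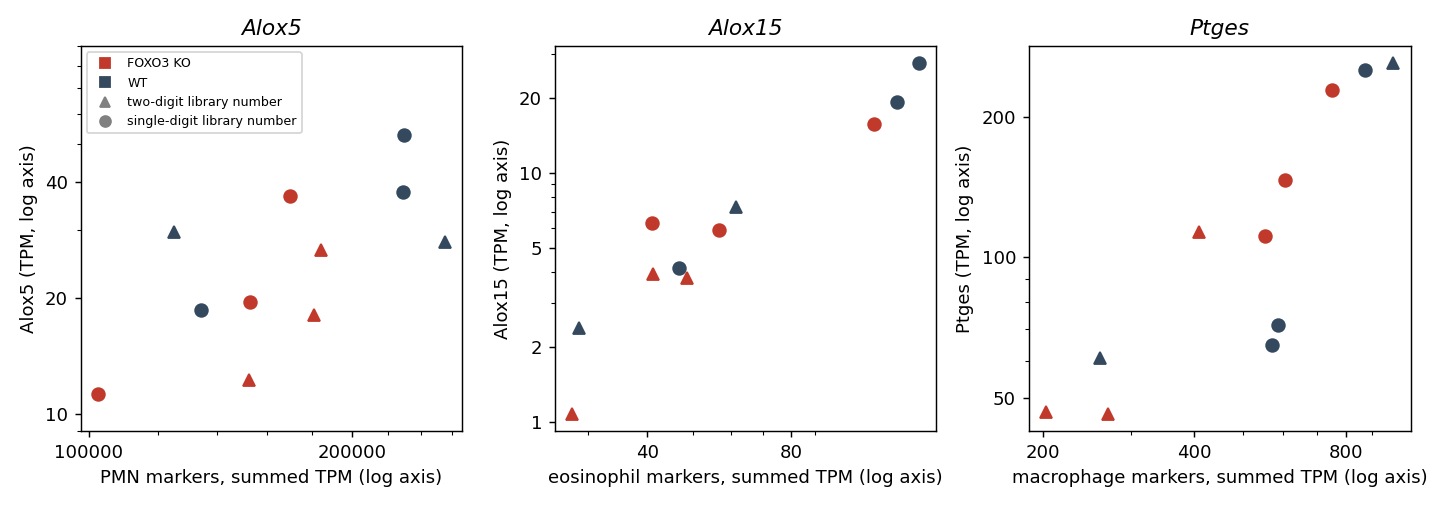
TPM of Alox5, Alox15 and Ptges in each library (log axes) against the summed TPM of PMN, eosinophil and macrophage markers, with FOXO3 KO in red, WT in dark, triangles for two-digit and circles for single-digit libraries. Alox15 is highest in the 3 libraries with eosinophil sums of 119 to 149 TPM, and Ptges in the 3 with macrophage sums of 749 to 992 TPM.

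The rest of the pathway was read from 87 further genes in 10 lists, of which 85 were in the table and 54 had a mean of at least 1 TPM. None passed the genotype test, and 28 of 54 had a negative log2 fold change, against 31.4% of all genes tested. The median was -0.022, against 0.11 over all genes tested. With quantile normalization 35 of 54 were negative, and the share of all genes was not counted there. With the 10 genes counted in, negative values were found for 3 of 6 phospholipases A2 and 5 of 9 reacylation genes. They were also found for 3 of 3 lipoxygenase and FLAP genes and 6 of 8 genes of leukotriene synthesis and processing. Further negative values were in 2 of 3 leukotriene receptors, 3 of 10 prostanoid synthases and 3 of 3 prostanoid receptors. Of 4 genes listed as receptors of resolution, among them Fpr1, 2 had negative values. With quantile normalization the counts rose to 5 of 6 phospholipases A2 and 5 of 10 prostanoid synthases. For leukotriene synthesis and processing the count rose to 7 of 8, and the other lists named here kept theirs. All 8 tested genes of eicosanoid inactivation and transport had positive values (median 0.12), but only 4 of 8 with quantile normalization. They include them Cyp4f18, a leukotriene B4 hydroxylase of mouse PMNs, at 99.7 ± 53.9 TPM in FOXO3 KO and 88.7 ± 27.1 TPM in WT (SD, n = 6 and 5, log2 fold change 0.036), and the leukotriene C4 exporter gene Abcc1, at 83.1 ± 21.3 TPM in FOXO3 KO and 70.9 ± 25.6 TPM in WT (log2 fold change 0.25). Of the 10 kinases and partners of the lipoxygenase and phospholipase, 8 had negative values (median of the 10 -0.16), and 8 also with quantile normalization (median -0.22). Negative in the main fit was the coactosin-like gene Cotl1, whose product binds 5-lipoxygenase, at 412 ± 156 TPM in FOXO3 KO and 446 ± 98.5 TPM in WT. Mapkapk2, a kinase gene, had 737 ± 179 TPM in FOXO3 KO and 733 ± 142 TPM in WT.

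Of the other phospholipases A2, Pla2g7, which encodes the platelet-activating factor acetylhydrolase, was most abundant, at 331 ± 70.1 TPM in FOXO3 KO and 454 ± 111 TPM in WT (SD, n = 6 and 5, log2 fold change -0.44, limma FDR = 0.99). The study had picked this gene on these libraries, so its direction here is not independent evidence. The study also measured this gene by qPCR in peritoneal PMNs, which is not part of the data used here. Pla2g15, the lysosomal enzyme, was at 6.99 ± 1.48 TPM in FOXO3 KO and 9.50 ± 2.70 TPM in WT (log2 fold change -0.37). For reacylation, Mboat7, which returns arachidonate to phosphatidylinositol, was at 109 ± 27.5 TPM in FOXO3 KO and 123 ± 21.1 TPM in WT, and the acyl-CoA synthetase gene Acsl5 was at 119 ± 66.9 TPM in FOXO3 KO and 110 ± 55.9 TPM in WT. The other lipoxygenases were hardly present, with Alox8 at most at 0.597 TPM and Alox12e at most at 0.309 TPM.

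Among further genes of synthesis and processing, Mgst1, a microsomal glutathione transferase gene, was at 146 ± 53.7 TPM in FOXO3 KO and 186 ± 59.1 TPM in WT. Ggt1, whose product turns leukotriene C4 into D4, was at 91.3 ± 33.8 TPM in FOXO3 KO and 104 ± 41.8 TPM in WT, and Ptges3, the cytosolic prostaglandin E synthase gene, at 65.3 ± 33.1 TPM in FOXO3 KO and 62.7 ± 31.4 TPM in WT. Of the receptors, Cysltr1 for cysteinyl leukotrienes was at 3.68 ± 2.95 TPM in FOXO3 KO and 4.03 ± 2.31 TPM in WT, and Cysltr2 at 1.48 ± 0.357 TPM in FOXO3 KO and 1.13 ± 0.473 TPM in WT. The prostaglandin E2 receptor genes Ptger4 and Ptger2 were at 13.9 ± 5.43 and 8.87 ± 3.52 TPM in FOXO3 KO, against 14.7 ± 5.61 and 10.7 ± 3.52 TPM in WT. The formyl peptide receptor genes Fpr1 and Fpr2, the second of which also binds lipoxin A4, were at 1219 ± 204 and 827 ± 100.3 TPM in FOXO3 KO, against 1284 ± 324 and 909 ± 121 TPM in WT (SD, n = 6 and 5 for each).

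Between the series, 7 of these 54 genes fell in the two-digit libraries and 5 rose, against 11.7% and 8.26% of all genes tested. Those that fell were Pla2g7, Lpcat3, Acsl4, Cysltr1, Tbxas1, Ptger2 and Cyp4f16. Cysltr1 was at 0.422 to 3.81 TPM in the two-digit and 4.40 to 7.19 TPM in the single-digit libraries (log2 difference -1.56, limma FDR = 0.0075), and Tbxas1, the thromboxane synthase gene, at 6.79 to 41.3 TPM in the two-digit and 28.4 to 62.0 TPM in the single-digit libraries (log2 difference -1.54, limma FDR = 0.019). Acsl4, the arachidonate-preferring acyl-CoA synthetase gene, was at 12.0 to 22.4 TPM in the two-digit and 25.7 to 37.9 TPM in the single-digit libraries (log2 difference -0.94, limma FDR = 0.0036). Those that rose were Pla2g16, Akr1b3, Cbr1, Ephx1 and Gpr18, of which the microsomal epoxide hydrolase gene Ephx1 was at 5.71 to 14.5 TPM in the two-digit and 0.285 to 3.39 TPM in the single-digit libraries (log2 difference 1.91, limma FDR = 0.0019).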

How the data were processed

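RNA of casein-elicited peritoneal PMNs was sequenced as paired-end libraries from 6 FOXO3 KO and 5 WT mice, 1 library per mouse, from a fraction that the study's methods give as mostly Ly6G-positive. The authors deposited 1 table of 54164 genes with TPM values, 1 column per library. The same table holds for each gene the normalized count averaged by the authors across libraries, a signal (28.0 for Ltc4s, 222 for Ptgs1 and 433 to 19411 for the other 8 genes), and the authors' own genotype comparison (log2 fold changes, standard errors, test statistics, p-values and adjusted p-values), which was not used. There were 0 columns of values beyond these. Of tools, the submitters' processing notes list kallisto 0.46.0, STAR 2.6.1d and DESeq2, and their roles are not given. The notes name both the mouse build mm10 and the human build hg38, and which one the TPM values rest on is not stated; the table holds mouse gene symbols. The annotation and the use of strand are not given in the sources used here. TPM values carry no read depth, so the depth and the counting error of each value are unknown, and low values such as those of Ltc4s are the least precise.

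Log2(TPM + 1) was fitted with limma 3.58.1 in R 4.3.3, with a mean-variance trend, for genes averaging 1 TPM or more, and p-values were adjusted by the Benjamini-Hochberg method over all 12195 such genes. Thresholds were FDR < 0.05 with a log2 fold change of more than 0.5 in size. Fitted were genotype alone, numbering series with genotype as a covariate, and their interaction. Single genes were also compared by two-sided exact permutation tests over 462 arrangements of the libraries, which allow no p under 0.0021645. Of the 10 genes, 0 had an exact permutation p under 0.05 (p = 0.080 to 0.99). The pipeline was tested on simulated data. Fold changes on the log2(TPM + 1) scale understate those of low genes.

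The alternatives were a pseudocount of 0.1, no filter, a mean of at least 5 TPM, quantile normalization, each library left out in turn, a replicate block, the numbering series or Xist as a covariate, each series or genotype alone, and sample weights. The two-digit columns were assigned to a genotype by name, not to single labelled mice. Same-numbered FOXO3 KO and WT libraries 1 to 3 deviated together from their group means (r across genes 0.55, 0.60 and 0.48, against -0.049 to 0.51 for different numbers). With means within the single-digit series the values were 0.51, 0.17 and 0.41, against -0.42 to 0.09. By the rule that each pair exceed 0.1, the numbers were taken to pair the libraries, although FOXO3 KO 3 and WT 2 (0.51) exceeded pair 3 (0.48) in the first measure, and the labels do not say what they stand for. In that measure other unlike numbers also exceeded 0.1 (0.28 for FOXO3 KO 2 and WT 1, 0.28 for FOXO3 KO 1 and WT 2, 0.33 for FOXO3 KO 2 and WT 3). In the second measure pair 2 was at 0.17, against 0.09 for FOXO3 KO 3 and WT 2. The pairing is therefore an assumption.

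The 10 genes, the lists of pathway and marker genes and the tests were chosen with earlier results of these data known. Named besides the 10 genes are the 2 most abundant others of each pathway list, pathway genes that passed a test where a result turns on them, the 4 genes most like Alox5, Alox15 or Ptgs2, and Foxo3, Xist and Ddx3y as checks of the labels. Gene positions follow GENCODE M21 (GRCm38, 1-based), and promoter windows are from RefSeq on GRCm38.p6.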

Additional observations from a re-analysis of the deposited data

Results flagged for a closer look

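Alox15 in FOXO3 KO 3 stood apart from its group, at 15.7 TPM, against 6.30 TPM in the next highest of the 6 FOXO3 KO libraries. The gap made up 0.642 of the group's range, above Dixon's critical value of 0.625 for 6 samples. Of 20 groups examined (each of the 10 genes in FOXO3 KO and in WT) this was 1, and chance alone flags about 1 in 20. The same library had the highest eosinophil marker sum among FOXO3 KO, at 119 TPM against 27.8 to 56.6 TPM in the others, and carried both Ddx3y (42.9 TPM) and Xist (4.29 TPM). The part of these features in its Alox15 level was not tested.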

How the results depend on the processing

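For genotype, 0 of the 10 genes were called under all 21 alternatives with a count, and Alox5, Alox5ap, Alox15 and Ltb4r1 kept a negative value under all of theirs. Genes called over the whole table numbered 0, but 1 in the two-digit series alone and 0 to 2 with single libraries left out (2 without WT 3). The count of negative values among the 10 ranged from 4 to 10 with single libraries left out. With the replicate block, which took the numbers as pairing, 0 genes were called and Alox5 had a log2 fold change of -0.67 (limma FDR = 0.75); the block changed no other call. Values near 0 changed sign, and the cause was not tested. Ltc4s became -0.12 with a pseudocount of 0.1, -0.057 with quantile normalization, -0.11 with Xist as a covariate and -0.19 with sample weights, and Ptgs1 became -0.043 with quantile normalization, -0.039 with Xist and -0.36 with weights. In the single-digit series alone Pla2g4a was at 0.28, Lta4h at 0.099, Ptgs2 at -0.26 and Ptges at 0.55, and with weights Pla2g4a was at 0.087 and Ptges at 0.38. With single libraries left out the values ranged from -0.43 to 0.092 for Pla2g4a, -0.17 to 0.052 for Lta4h, -0.32 to 0.27 for Ltc4s, -0.12 to 0.35 for Ptgs1, -0.082 to 0.34 for Ptgs2 and -0.44 to 0.10 for Ptges.

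Between the series, 2436 genes were called, against 1605 with a mean of at least 5 TPM, 1448 within FOXO3 KO alone, 217 within WT alone and 1492 to 3636 with single libraries left out. Of the 10, 3 were called, against 1 at the 5 TPM filter, which removes Ltc4s and Ptgs1, 0 within WT alone and 2 to 4 with single libraries left out. Ptgs2 was at 0.076 within FOXO3 KO alone, Ptges at 0.25 within WT alone, and Alox5 at -0.38 to 0.030 with single libraries left out. For the interaction, 4 genes were called with a pseudocount of 0.1 and 0 to 3 with single libraries left out, none of them among the 10. Depth is unknown, and 5 WT against 6 FOXO3 KO libraries leave intervals as wide as -1.40 to 0.014 for Alox5 and -2.03 to 0.59 for Alox15 on the log2 scale.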
